A study of Mus musculus with 24 samples.

Results

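In mouse liver, 10 genes that mark hepatic stellate cells and the myofibroblasts they can become were followed: Dcn, Lrat, Reln, Des, Acta2, Tagln, Pdgfrb, Pdgfra, Lum and Rgs5. They were chosen by name as known markers, with earlier results of these data known, and all 10 of 10 were found among the 21755 genes of the p16-3MR table. In the wild-type table of 12643 rows, 6 of 10 could be used, because its row labels lack 9 lower-case letters and the labels left for Reln, Des, Pdgfrb and Rgs5 match 8, 6, 2 and 3 gene symbols. No wild-type value is therefore given for these 4 genes.

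Liver RNA came from 24 mice, 3 in each of 8 groups. The 12 p16-3MR mice carry a BAC transgene that places the 3MR cassette, with a herpes virus thymidine kinase, in the p16Ink4a locus, so that ganciclovir (GCV) kills cells that express it. All 12 carry it, and females and males were given GCV or vehicle (VEH) on 5 consecutive days of each month, beginning when they were 16 to 18 months old. The 12 wild-type mice lack the transgene and received the same agents for 3 months from 6 months of age, as a control for effects of GCV itself. According to the labels GCV was dosed at 150 mg/kg, whereas the study's methods state a lower dose. The labels call the wild-type cohort age-matched, but its starting age was lower and it was a separate batch, so that genotype, batch, age and length of treatment cannot be told apart and no test between the genotypes was made.

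Stellate cells lie between the hepatocytes and the sinusoidal endothelium, store vitamin A as retinyl esters and act as the pericytes of the liver. On injury they lose these stores and can turn into contractile myofibroblasts that lay down fibrillar collagen. PDGF, read by Pdgfra and Pdgfrb, and TGF-beta are the best known signals in this change, and serum response factor with its coactivators drives the contractile genes Acta2 and Tagln. Smooth muscle of vessels also expresses Acta2, Tagln and Des, and portal fibroblasts express Dcn and Lum. In RNA from whole liver, fewer cells of a type and less RNA per cell cannot be told apart.

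The libraries were made from 3′ ends, so levels are given as a scaled abundance (CPM, reads of a gene relative to all reads of its library, scaled by the trimmed mean of M values, TMM) and compared for 1 gene across livers, never between genes. Libraries held 5005760 to 7160172 counts in the p16-3MR table and 3084517 to 5667904 in the wild-type table. Female GCV liver 33 stood apart: 64.0% of its counts were mitochondrially encoded, against 12.3 to 22.4% in the other 11 p16-3MR livers, and 3 counts in it correspond to 2.32 CPM, against 0.293 to 0.578 CPM. Its TMM factor was 0.259, those of male GCV liver 32 and male VEH liver 24 were 1.80 and 1.64, and the other 9 p16-3MR livers lay between 0.850 and 1.19. The quasi-likelihood test of edgeR was used to compare groups, and a gene was called at a Benjamini-Hochberg adjusted p under 0.05 over all genes of the table. The biological coefficient of variation was 55.8% in the p16-3MR livers and 16.6% in the wild-type livers.

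In the p16-3MR table all 6 hepatocyte markers and all 9 stellate markers listed were detected. The stellate marker list includes the members Lrat, Reln and Des, so its sum is not independent of the members. The stellate markers summed to 93.9 CPM in male GCV liver 34 and to 364 CPM in male GCV liver 32, the lowest and the highest of the 12 livers. In the female livers the same sum lay between 183 and 249 CPM.

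In p16-3MR females, Lrat, Reln and Dcn had lower mean levels in the GCV livers than in the VEH livers, but none passed the test. The groups overlapped for Reln, as they did for Des and for the contractile genes Tagln and Acta2. Lrat (chr3:82892579-82903973, GRCm38), which encodes the enzyme that esterifies vitamin A for storage, was at 9.06, 16.2 and 16.9 CPM in GCV livers 31, 33 and 35. In VEH livers 27, 28 and 29 it was at 22.1, 28.5 and 18.8 CPM. Every GCV liver was thus below every VEH liver, and the fitted log2 fold change was -0.73 (SE 0.45, adjusted p = 0.697, edgeR).

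Dcn, which encodes decorin, a small proteoglycan that binds collagen fibrils and TGF-beta, was at 175, 109 and 181 CPM in GCV livers 31, 33 and 35. In VEH livers 27, 28 and 29 it was at 217, 204 and 189.7 CPM. These groups did not overlap either, also without liver 33, and the log2 fold change was -0.39 (SE 0.47, adjusted p = 0.819, edgeR). The 2 genes are 2 of 10 members with all GCV livers below all VEH livers, while 7.35% of all genes (1600 of 21755) had the same arrangement.

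Reln (chr5:21884454-22344702), which encodes the secreted glycoprotein reelin that marks stellate cells in the liver, was at 14.1, 13.1 and 23.3 CPM in the GCV females. The VEH females had 49.2, 36.5 and 21.4 CPM. GCV liver 35 lay above VEH liver 29, so the groups overlapped, and the log2 fold change of -1.07 (SE 0.59, adjusted p = 0.681, edgeR) was the farthest from 0 of the 10 members in this comparison.

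Lum, which encodes lumican, a proteoglycan of the same family as decorin, was at 5.59, 1.54 and 5.53 CPM in the GCV females and at 6.17, 7.52 and 5.41 CPM in the VEH females. The groups overlapped, the value of liver 33 rests on 2 counts, and the log2 fold change was -0.49 (SE 0.86, adjusted p = 0.906, edgeR). Dcn and Lum are neighbours on the forward strand of one chromosome, at chr10:97479609-97518143 and chr10:97565128-97572703 (GRCm38).

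For the contractile genes the groups overlapped, and whether their response differed from that of the genes above was not tested. Tagln (chr9:45929619-45936058), which encodes the actin-binding protein transgelin, was at 4.63, 1.54 and 12.4 CPM in the GCV females and at 5.09, 2.46 and 4.40 CPM in the VEH females. Its log2 fold change of 0.73 (SE 0.72) turned to -0.22 when GCV liver 35 was left out. Acta2 (chr19:34241090-34255590), which encodes the smooth muscle actin used to mark myofibroblasts, was at 1.16, 3.86 and 5.53 CPM against 2.14, 2.46 and 5.41 CPM.

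Des (chr1:75360329-75368579), which encodes the intermediate filament desmin, ranged from 3.09 to 5.78 CPM in the GCV females and from 3.91 to 4.69 CPM in the VEH females. Of the PDGF receptors, Pdgfrb ranged from 4.03 to 10.8 CPM and from 4.03 to 8.85 CPM, and Pdgfra (chr5:75152292-75198215) from 5.59 to 11.6 CPM and from 6.80 to 9.11 CPM. Rgs5 (chr1:169655501-169695813), which encodes a regulator of G protein signalling found in pericytes, ranged from 16.0 to 91.9 CPM and from 26.8 to 77.0 CPM. For these 4 genes the groups overlapped.

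**Figure D1:**
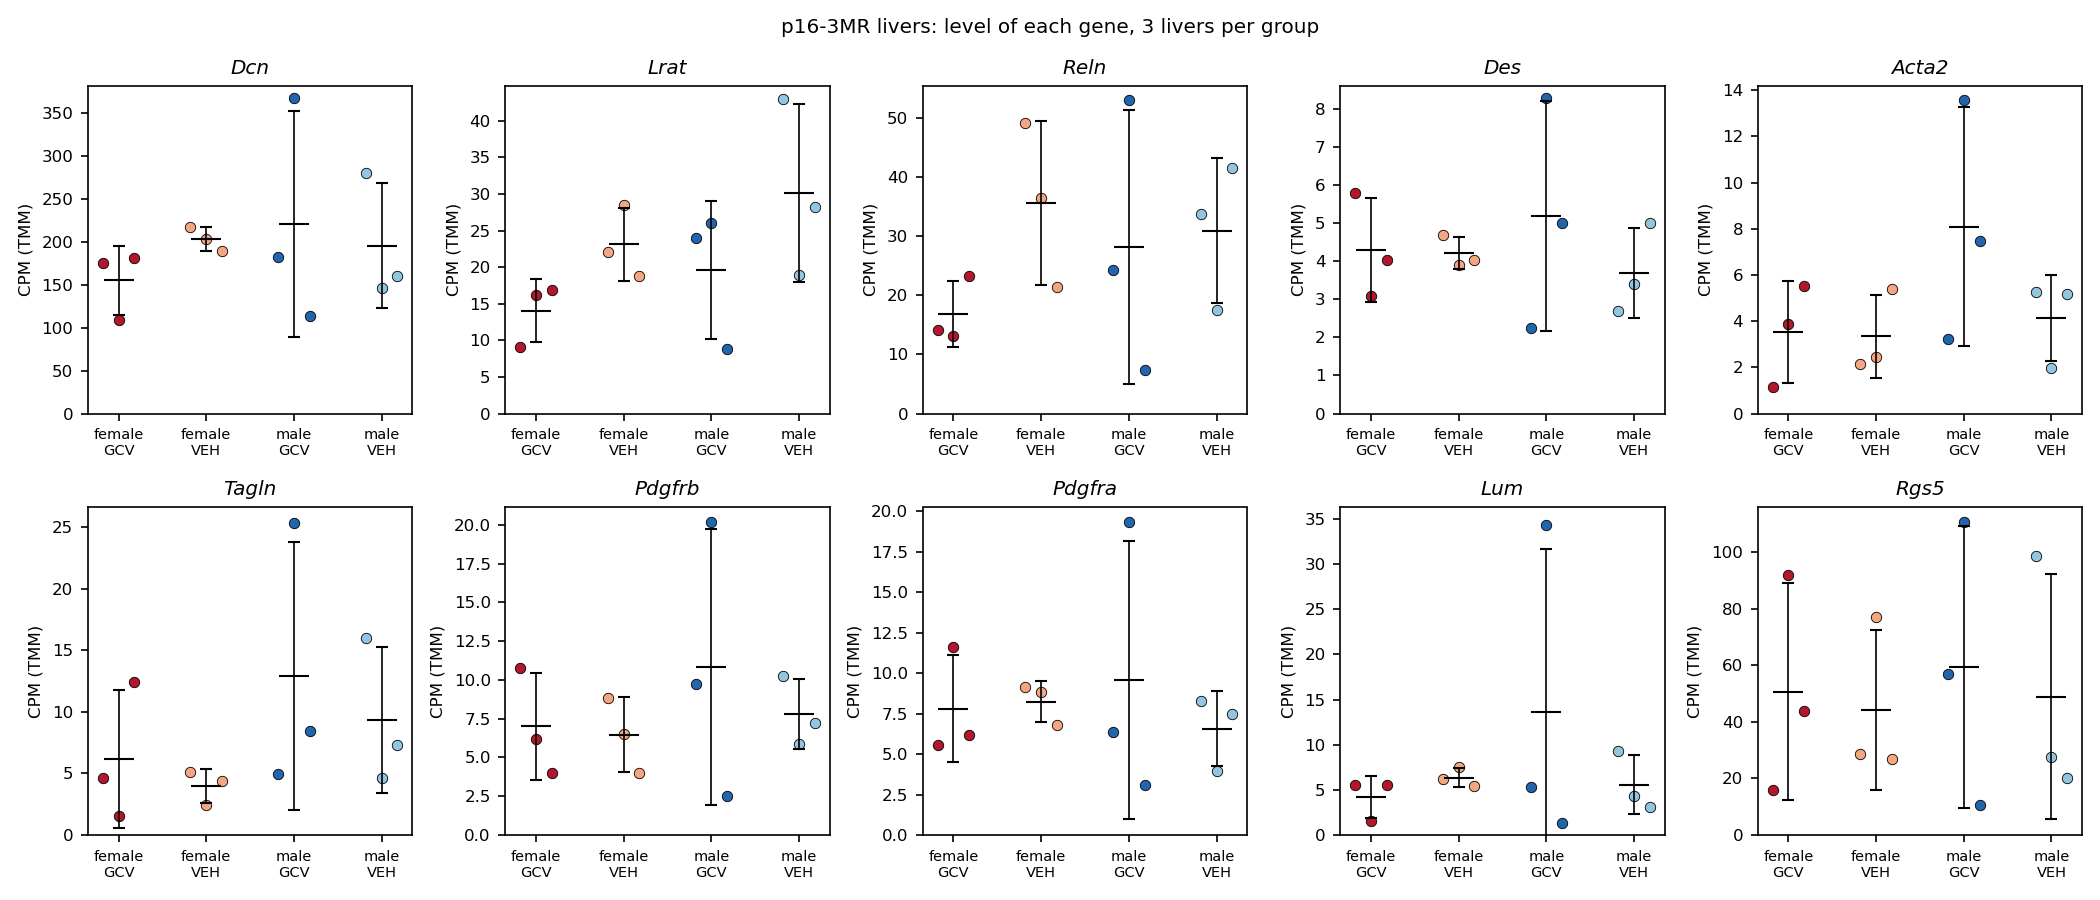
Level of each gene (CPM, linear axis from 0) in every p16-3MR liver by sex and treatment, with the mean and SD of the 3 livers of each group as a horizontal line and bar (the bar of Lum in GCV males is cut at 0). Dcn and Lrat are lower in all 3 GCV females than in all 3 VEH females, and 1 GCV male is the highest of the 12 livers for 9 of 10 genes.

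With all 12 livers in the fit, 5 of 10 members were lower and 5 higher with GCV in females, and the median was -0.04 on the log2 scale beside 0 over all genes. No member was called in p16-3MR females, and 0.0% of all genes were (0 of 21755). None of the members had an unadjusted p under 0.05 with edgeR or DESeq2, against 1603 genes of the table with edgeR, and DESeq2 called 90 genes but no member. Without liver 33, 7 of 10 members were lower and the median was -0.25.

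Of 23 other genes of resting stellate cells, 17 were lower and 6 higher with GCV in the females, and none was called. Their median was -0.41, beside 0 over all genes, of which 49.8% were lower. Hgf, which encodes hepatocyte growth factor, ranged from 2.31 to 5.70 CPM with GCV and from 7.55 to 18.2 CPM with VEH (log2 fold change -1.74, SE 0.74, adjusted p = 0.667, edgeR). Colec10, a collectin gene, ranged from 2.32 to 15.9 CPM and from 17.4 to 38.2 CPM (-1.69, SE 0.64, adjusted p = 0.665, edgeR).

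Of 18 fibrogenic activation genes, which hold the fibrillar collagens and their crosslinking enzymes, 16 were lower and 2 higher in GCV females, and none was called. Among 14 TGF-beta ligands, receptors and transducers, 10 were lower and 4 higher, and SRF and its coactivators were lower in 4 of 4 cases. None of these was called. Of 19 other contractile genes, 11 were lower and 8 higher, with a median of -0.27. The retinoid storage and turnover genes leaned the other way, with 11 of 17 higher and 6 lower and a median of 0.15, and none of them was called.

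Among the PDGF ligand genes, Pdgfa had values of 7.21, 16.2 and 124 CPM, from low to high, in the GCV females and at 2.52 to 4.05 CPM in the VEH females, with no overlap. The value of 124 CPM is that of liver 33. The log2 fold change was 3.91 (SE 0.84, adjusted p = 0.646, edgeR) and 1.81 without that liver. Pdgfc ranged from 0.671 to 4.05 CPM and from 3.89 to 10.3 CPM (log2 fold change -1.93, SE 0.88, adjusted p = 0.667, edgeR).

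Of the markers of other cell types, none was called between the female groups, and their sums overlapped. The 5 Kupffer cell markers summed to 93.6 to 279 CPM in the GCV females and to 267 to 727 CPM in the VEH females. All 5 were lower with GCV, 1 of them at an unadjusted p under 0.05. Of the 6 sinusoidal endothelial markers 5 were lower, 2 of them at an unadjusted p under 0.05, and the 6 summed to 74.1 to 133 CPM and to 90.0 to 187 CPM, and the 5 vascular smooth muscle markers to 27.03 to 64.6 CPM and to 54.1 to 59.9 CPM. The 8 portal fibroblast markers summed to 8.496 to 14.3 CPM and to 10.3 to 17.4 CPM. The 4 lymphocyte markers were lower with GCV in 4 of 4 cases, 2 of them at an unadjusted p under 0.05, and summed to 1.93 to 8.496 CPM and to 6.03 to 52.7 CPM. Of the 5 cholangiocyte markers 4 were higher with GCV, and they summed to 36.6 to 142 CPM and to 34.7 to 97.96 CPM. Over all 21755 genes, 1603 had an unadjusted p under 0.05 in this comparison (edgeR). All markers on these lists had counts in this table, and their part in the values of Dcn, Lrat and Reln was not tested.

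In p16-3MR males, the direction of the GCV response rested on 1 liver. Male GCV liver 32 was the highest of all 12 p16-3MR livers for 9 of 10 members, Lrat being the exception, and male GCV liver 34 was the lowest for 6 of 10. Lum showed this most plainly, with 5.35, 34.3 and 1.34 CPM in GCV livers 30, 32 and 34 and 9.34, 4.29 and 3.13 CPM in VEH livers 24, 25 and 26. Its log2 fold change was 1.30 (SE 0.83, adjusted p = 1, edgeR) with all livers and -0.76 (SE 0.69) without liver 32.

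Dcn was at 182, 368 and 114 CPM in the GCV males and at 279.8, 147 and 161 CPM in the VEH males. Acta2 was at 3.24, 13.6 and 7.49 CPM against 5.25, 1.96 and 5.16 CPM. Tagln was at 4.93, 25.4 and 8.45 CPM against 16.0, 4.64 and 7.35 CPM. In each case liver 32 lay above every VEH male, and another GCV male lay among or below them.

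For the PDGF receptors the order was the same. Pdgfrb was at 9.72, 20.2 and 2.497 CPM in GCV livers 30, 32 and 34 and between 5.89 and 10.3 CPM in the VEH males. Pdgfra was at 6.34, 19.3 and 3.07 CPM and between 3.93 and 8.29 CPM. Rgs5 was at 56.9, 111 and 10.8 CPM and between 20.3 and 98.7 CPM, where the highest VEH male was liver 24.

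Lrat and Reln were lower on average in the GCV males. Lrat was at 23.95, 26.1 and 8.84 CPM in GCV livers 30, 32 and 34 and at 43.1, 18.9 and 28.3 CPM in VEH livers 24, 25 and 26 (log2 fold change -0.61, SE 0.44, adjusted p = 1, edgeR). Reln was at 24.2, 53.1 and 7.30 CPM against 33.8, 17.5 and 41.6 CPM. The groups overlapped for both genes.

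**Figure D2:**
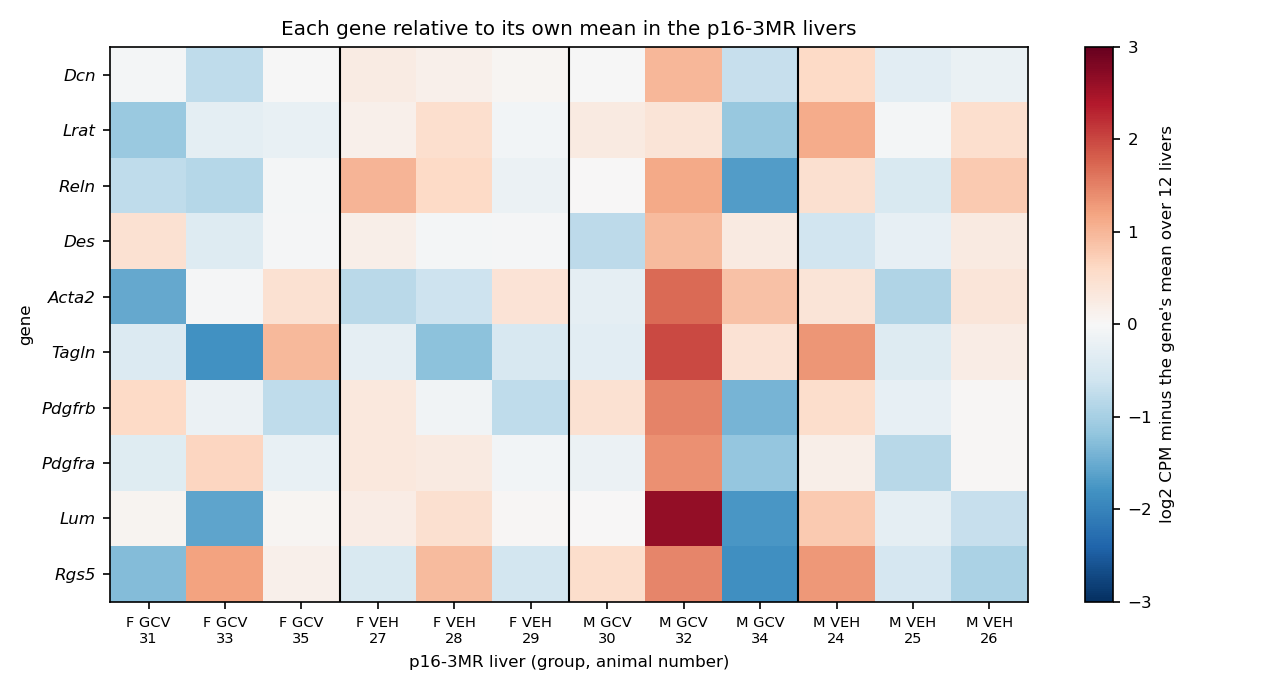
Log2 CPM of each gene minus its mean over the 12 p16-3MR livers (colour scale), with livers in columns by group and animal number. Male GCV liver 32 is above the mean for all 10 genes, with a mean deviation of 1.41, and male GCV liver 34 has the lowest mean deviation, -0.81.

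With all livers, 8 of 10 members were higher with GCV in males and the median log2 fold change was 0.48, beside 0.04 over all genes. Without liver 32, 9 of 10 were lower and the median was -0.54, beside -0.05 over all genes. No member was called in p16-3MR males under either condition, and 0.0% of all genes were with all livers (0 of 21755). No member had an unadjusted p under 0.05 with edgeR or DESeq2 with all livers, and DESeq2 called 5 genes but no member.

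**Figure D3:**
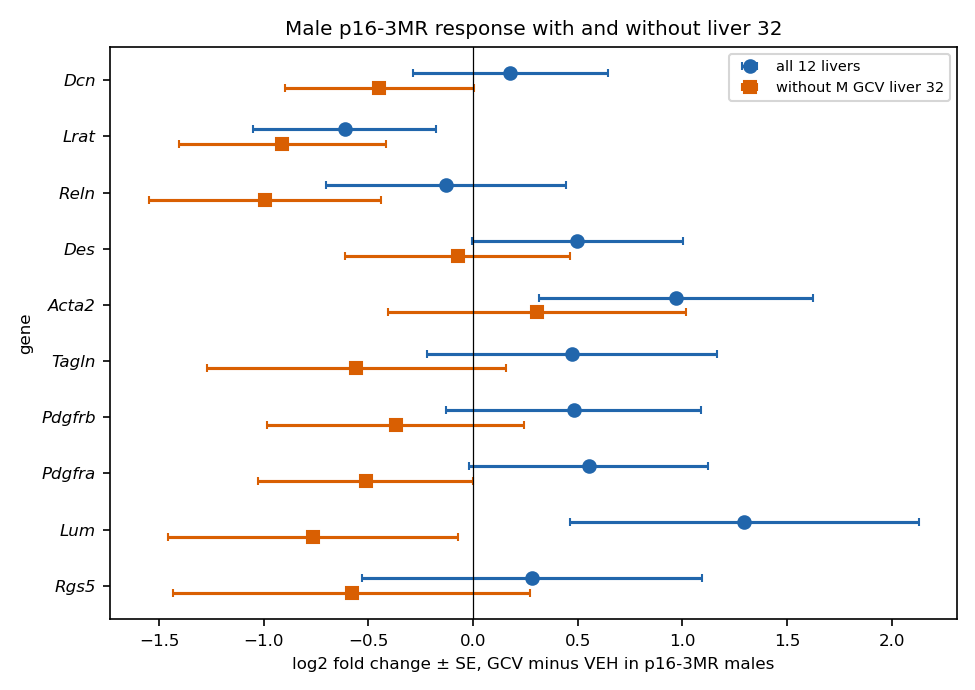
Log2 fold change (GCV minus VEH in p16-3MR males, with its SE as a bar) of each gene with all 12 livers (circles) and without male GCV liver 32 (squares). The sign differs between the 2 fits for 7 of the 10 genes, and Lum moves from 1.30 to -0.76.

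Fibrogenic activation genes followed liver 32 as well. With all livers 18 of 18 were higher with GCV in males, with a median of 1.42, and 4 of them had an unadjusted p under 0.05, but none was called. Over all 21755 genes, 416 had an unadjusted p under 0.05 in this comparison (edgeR). Col1a1, a chain of type I collagen, was at 7.68, 25.8 and 356 CPM, from low to high, in the GCV males and at 3.75 to 24.7 CPM in the VEH males (log2 fold change 3.33, SE 1.09, adjusted p = 1, edgeR). Col1a2, the other chain, had a log2 fold change of 2.40 (SE 0.89) and Lox, which encodes a collagen crosslinking enzyme, 3.23 (SE 1.39). Without liver 32, 13 of 18 were lower and the median was -0.38. The log2 fold changes without it were 0.33 for Col1a1, -0.15 for Col1a2 and -0.43 for Lox.

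The other lists in males held no called gene either. Among 23 resting stellate genes 12 were lower with all livers and 17 without liver 32, and among 14 TGF-beta genes 9 and 13 were. Of 11 mural cell genes, 7 were higher with all livers, while 9 were lower without liver 32. Of 17 retinoid storage and turnover genes, 14 were lower with all livers and 8 without it.

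Liver 32 also stood apart in other cell types. Its 6 hepatocyte markers summed to 24392 CPM and those of male VEH liver 24 to 38988 CPM, while the other 10 p16-3MR livers lay between 76799 and 155018 CPM. The Kupffer cell markers summed to 2825 CPM in liver 32 and to 1449 CPM in liver 24, against 93.6 to 890.1 CPM in the others. The portal fibroblast markers summed to 29.5 CPM in liver 32 and to 8.496 to 17.4 CPM in the other 11 livers. Its vascular smooth muscle markers summed to 33.4 CPM, above only liver 33 (27.03 CPM) and below the other 10 livers, which reached 65.1 CPM. Of these 5 markers, however, 4 had higher fitted levels with GCV in the males (median log2 fold change 0.73), and none was called. The sum thus does not stand for each of them. The part of these shifts in the members' values was not tested.

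The GCV response did not differ between the sexes by test for any member in the p16-3MR mice. The difference of the responses (female minus male) was negative for 9 of 10 members, with log2 values from -1.78 to 0.26 and SEs from 0.62 to 1.19, and the lowest adjusted p was 0.976 (edgeR). In this comparison 0.0% of all genes were called (0 of 21755), no member had an unadjusted p under 0.05 with either tool, and DESeq2 called 3 genes but no member. Without liver 32, 8 of 10 differences were positive.

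Across the 12 p16-3MR livers the members varied together. Male GCV liver 32 was the highest for 9 of 10 members and male GCV liver 34 the lowest for 6 of 10. The part of these livers in the correlations was not tested. Pearson's r between the log2 CPM of 2 members was positive for 42 of 45 pairs, with a median of 0.49, as a description over livers that share group and depth. The pair with the highest r was Dcn and Lum (0.96), and that of the resting markers Lrat and Reln reached 0.81. Des was the member least like the others, with r from -0.30 to 0.40.

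Among 12365 genes with a mean of at least 10 counts, those other than the members that followed the members' mean most closely over the 12 livers included Fstl1 (r = 0.95), a secreted follistatin-like protein gene, Abcc9 (0.95), which encodes a potassium channel subunit of pericytes, Col3a1 (0.94), a fibrillar collagen gene and Cygb (0.94), which encodes the globin of stellate cells. Abcc9, Col3a1 and Cygb were on the lists of mural, fibrogenic and resting stellate cell genes.

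All 10 members had lower fitted levels in p16-3MR females than in p16-3MR males, and none was called. Tagln had the widest gap, with a lowest, median and highest level of 1.54, 4.52 and 12.4 CPM in the 6 females and of 4.64, 7.90 and 25.4 CPM in the 6 males. The sexes overlapped, and the log2 fold change was -1.10 (SE 0.50, unadjusted p = 0.0471, adjusted p = 0.686, edgeR). It was the only member with an unadjusted p under 0.05, as were 7.05% of all genes. DESeq2 gave that p for 1 member as well. For the adjusted p, edgeR called 0.303% of all genes (66 of 21755).

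Acta2 ranged from 1.16 to 5.53 CPM in the females and from 1.96 to 13.6 CPM in the males, and Lum from 1.54 to 7.52 CPM and from 1.34 to 34.3 CPM. The median log2 fold change over the members was -0.35, beside -0.07 over all genes. Without male GCV liver 32 only 4 of 10 members were lower in females and the median was 0.06, while that of Tagln was -0.65 (SE 0.48). Of the fibrogenic activation genes 16 of 18 were lower in females, 8 of them at an unadjusted p under 0.05, and none was called. Without liver 32 these counts were 13 and 2. Tnc, which encodes the matrix protein tenascin C, ranged from 0 to 2.95 CPM in the females and from 1.54 to 24.4 CPM in the males (log2 fold change -2.34, SE 0.72, adjusted p = 0.498, edgeR, and -1.26 without liver 32). The log2 fold changes of Col1a1 and Lox were -1.97 (SE 0.74) and -2.39 (SE 1.08), and -0.55 and -0.64 without liver 32.

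For every member in the p16-3MR table, the order of the 4 group means held no neighbours whose livers were fully apart. Dcn, for example, ran from 221 ± 131 CPM (SD, n = 3) in GCV males through 204 ± 13.8 in VEH females and 195.7 ± 73.2 in VEH males to 155 ± 40.2 in GCV females. Lrat ran from 30.1 ± 12.2 CPM in VEH males through 23.1 ± 4.95 in VEH females and 19.6 ± 9.39 in GCV males to 14.1 ± 4.36 in GCV females.

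In the wild-type livers, Lrat and Dcn were higher in females than in males, and these were the only members called in any comparison. Lrat had a lowest, median and highest level of 25.98, 30.1 and 35.4 CPM in the 6 females and of 18.3, 21.9 and 25.5 CPM in the 6 males. No female overlapped a male. The log2 fold change was 0.48 (SE 0.12, adjusted p = 0.0113, edgeR).

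Dcn had a lowest, median and highest level of 213, 224 and 239 CPM in the females and of 154, 184 and 209.7 CPM in the males, again without overlap. Its log2 fold change was 0.29 (SE 0.08, adjusted p = 0.0240, edgeR). The 2 of 6 members called, and the same 2 of 6 without overlap, stand beside 7.94% of all genes called (1004 of 12643) and 2.31% of all genes with every female above every male (292 of 12643).

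The call for Lrat held in each fit that left out 1 liver. That for Dcn did not in 4 of 12 such fits: its adjusted p (edgeR) was 0.0659 without female GCV liver 5, 0.0643 without female VEH liver 5, 0.0812 without male GCV liver 1 and 0.0728 without male VEH liver 2, while its log2 fold change stayed between 0.24 and 0.32.

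Within each treatment, on fewer livers, neither difference was called. Lrat was at 30.8, 35.4 and 29.4 CPM in the VEH females and at 25.5, 23.0 and 20.9 CPM in the VEH males. In the GCV livers it was at 25.98, 28.8 and 31.5 CPM in females and at 23.9, 18.3 and 19.8 CPM in males. The log2 fold changes were 0.47 (SE 0.16, adjusted p = 0.132, edgeR) in VEH livers and 0.49 (SE 0.17, adjusted p = 0.145, edgeR) in GCV livers.

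Dcn was at 213, 239 and 215 CPM in the VEH females against 182, 178 and 209.7 CPM in the VEH males, and at 223, 236 and 225 CPM in the GCV females against 154, 197 and 186 CPM in the GCV males. The log2 fold changes were 0.22 (SE 0.11, adjusted p = 0.342, edgeR) and 0.35 (SE 0.11, adjusted p = 0.106, edgeR).

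**Figure D4:**
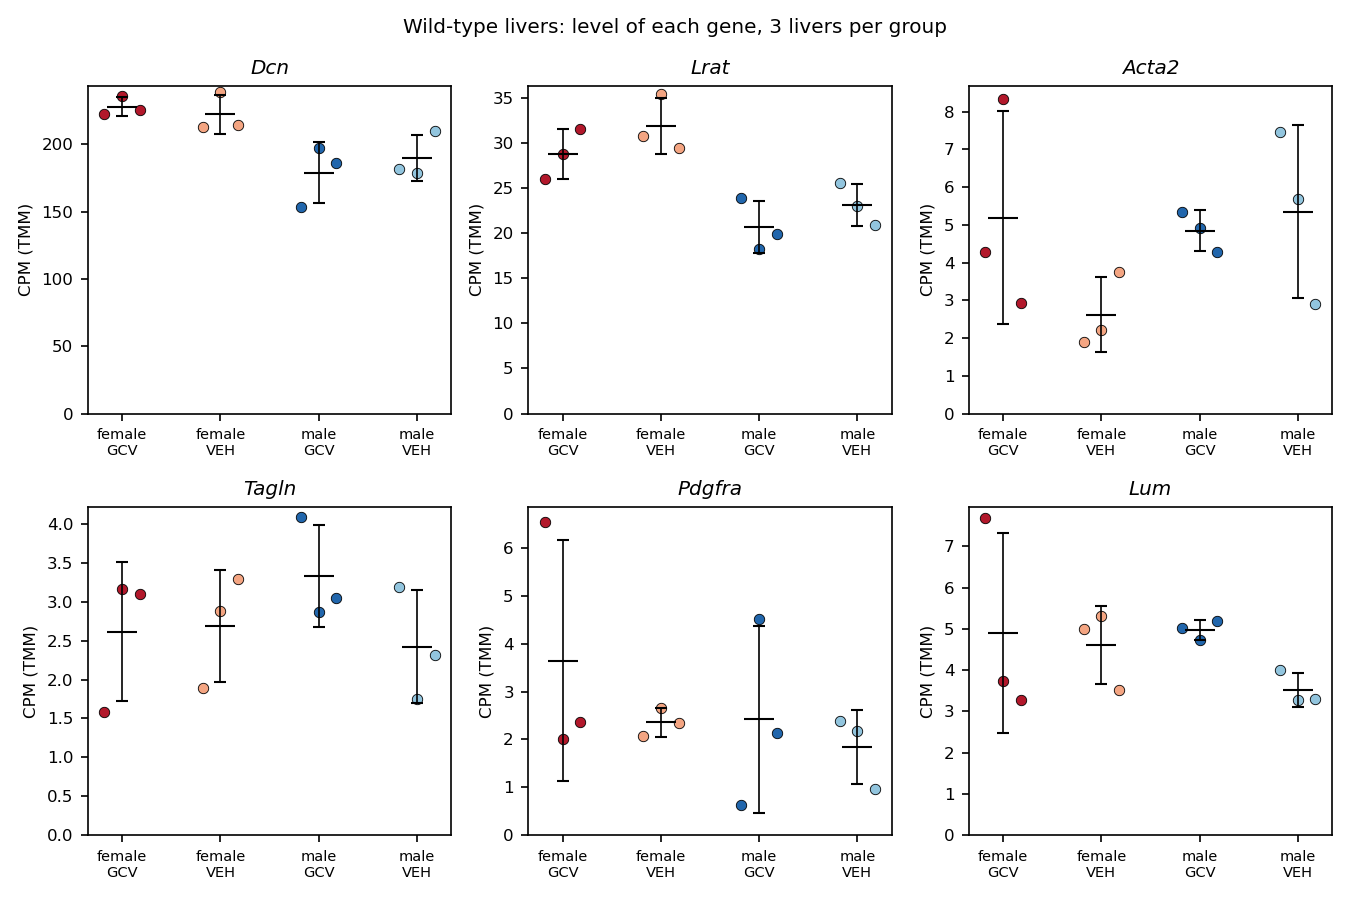
Level of each gene that could be matched (CPM, linear axis from 0) in every wild-type liver by sex and treatment, with the mean and SD of the 3 livers of each group. The 6 females sit between 213 and 239 CPM for Dcn and between 25.98 and 35.4 CPM for Lrat, above all 6 males.

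The scaling of the libraries also moved with sex. The TMM factor was 1.11 to 1.14 in the wild-type females and 0.835 to 0.975 in the males, and the 10 most abundant genes held 18.6 to 19.5% and 23.2 to 29.5% of counts. With DESeq2's size factors in place of TMM the log2 fold changes were 0.47 for Lrat and 0.28 for Dcn, and both were still called.

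The other 4 members showed no called sex difference. Acta2 ranged from 1.89 to 8.34 CPM in the females and from 2.90 to 7.45 CPM in the males (log2 fold change -0.48, SE 0.31, adjusted p = 0.412, edgeR). Pdgfra ranged from 2.01 to 6.55 CPM and from 0.629 to 4.51 CPM, Tagln from 1.58 to 3.29 CPM and from 1.75 to 4.09 CPM, and Lum from 3.28 to 7.68 CPM and from 3.28 to 5.19 CPM. These 4 genes had between 2 and 34 counts in any wild-type liver, which leaves their fold changes with SEs of 0.26 to 0.41.

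Other stellate and mural genes were tested in the same wild-type comparison. Of 13 other genes of resting stellate cells, 12 were higher in females (median on the log2 scale 0.45 beside 0.03 over all genes), and 1 was called, near the share of 7.94% over all genes. This was Vipr1, which encodes a receptor for vasoactive intestinal peptide, with 20.4 to 23.6 CPM in the females and 11.9 to 16.4 CPM in the males (log2 fold change 0.58, SE 0.13, adjusted p = 0.00448, edgeR). All 6 of the 6 mural cell genes that could be matched were higher in females, with a median of 0.63, and Agtr1a, which encodes an angiotensin II receptor also present in hepatocytes, was called. It ranged from 38.9 to 49.8 CPM and from 24.2 to 34.5 CPM (0.54, SE 0.11, adjusted p = 0.00264, edgeR).

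Of 9 retinoid storage and turnover genes, 3 were called higher and 1 lower in females, beside 7.94% of all genes called, and several of them are also expressed by hepatocytes. Dhrs3, which encodes a retinal reductase, had a log2 fold change of 0.33 (SE 0.10, adjusted p = 0.0335, edgeR), and Cyp26b1, which encodes an enzyme that degrades retinoic acid, of 1.39 (SE 0.40, adjusted p = 0.0327, edgeR). Both calls were lost in several fits that left out 1 liver, 8 of 12 for Dhrs3 and 7 of 12 for Cyp26b1. Pnpla3, which encodes a lipase acting on retinyl esters, was at 0.678 to 2.82 CPM in the females and at 0 to 0.205 CPM in the males (adjusted p = 0.00728, edgeR), all of these at 12 counts or fewer.

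Aldh1a1, which encodes a retinaldehyde dehydrogenase abundant in hepatocytes, was lower in females, with 356 to 593 CPM against 602 to 802 CPM (log2 fold change -0.55, SE 0.09, adjusted p = 0.000311, edgeR). Among contractile genes, Vcl, which encodes the adhesion protein vinculin, was lower, with 5.42 to 8.94 CPM against 9.85 to 13.3 CPM (-0.73, SE 0.17, adjusted p = 0.00822, edgeR). The other 3 contractile genes matched were not called. Of the other small leucine-rich proteoglycan genes, Omd was at 0 to 0.863 CPM in the females and at 1.89 to 4.88 CPM in the males (adjusted p = 0.000115, edgeR), with no more than 17 counts in a liver. No fibrogenic activation, PDGF, TGF-beta or SRF gene that could be matched was called.

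The other marker lists of the wild-type table were short. The 2 Kupffer cell markers matched, Clec4f and Vsig4, summed to 94.6 to 140.0 CPM in the females and to 74.1 to 117 CPM in the males. The 3 endothelial markers summed to 31.6 to 48.9 CPM and to 24.7 to 37.3 CPM, and the 2 hepatocyte markers to 12241 to 13666 CPM and to 13845 to 15607 CPM, with no overlap between the sexes. The 2 portal fibroblast markers were both higher in females, 1 of them at an unadjusted p under 0.05, and summed to 1.38 to 4.07 CPM and to 0.314 to 1.86 CPM. Both Kupffer cell markers were higher in females at an unadjusted p under 0.05, and 1 of the 2 hepatocyte markers was called lower. Over all 12643 genes, 2535 had an unadjusted p under 0.05 in this comparison (edgeR), and 7.94% were called. The single smooth muscle marker, Myh11, was at 3.27 to 5.42 CPM and at 1.74 to 4.40 CPM. Their part in the values of Lrat and Dcn was not tested.

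No member was called for GCV in wild-type mice. In females, Dcn differed by a log2 fold change of 0.04 (SE 0.11) and Lrat by -0.14 (SE 0.16). Acta2 was at 4.29, 8.34 and 2.92 CPM in GCV females 4, 5 and 6 and at 1.89, 2.21 and 3.76 CPM in VEH females 4, 5 and 6. The groups overlapped, and the log2 fold change was 0.95 (SE 0.45, unadjusted p = 0.0450, adjusted p = 1, edgeR). It was the only 1 of 6 members with an unadjusted p under 0.05 with edgeR, where 4.56% of all genes had one, and DESeq2 gave none. EdgeR's adjusted p called 0.00791% of all genes in wild-type females, 1 of 12643 and no member.

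In wild-type males, Lum was at 5.03, 4.72 and 5.19 CPM with GCV and at 3.99, 3.28 and 3.29 CPM with VEH. Every GCV male was above every VEH male, an arrangement found in 4.48% of all genes (566 of 12643) and in 1 of 6 members, and the log2 fold change was 0.50 (SE 0.38, adjusted p = 0.890, edgeR). Dcn differed by -0.09 (SE 0.11) and Lrat by -0.17 (SE 0.17). No member was called in wild-type males, 0.0% of all genes were (0 of 12643), no member had an unadjusted p under 0.05 with edgeR or DESeq2, and DESeq2 called 1 gene, not a member. No gene of the lists described above was called for GCV in either sex.

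The difference of the GCV responses between wild-type females and males was called for no member, and edgeR called 0.00791% of all genes in it (1 of 12643). The member values ran from -0.48 for Tagln to 1.07 for Acta2 (SE 0.62, adjusted p = 0.982, edgeR), with no unadjusted p under 0.05 in either tool.

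**Figure D5:**
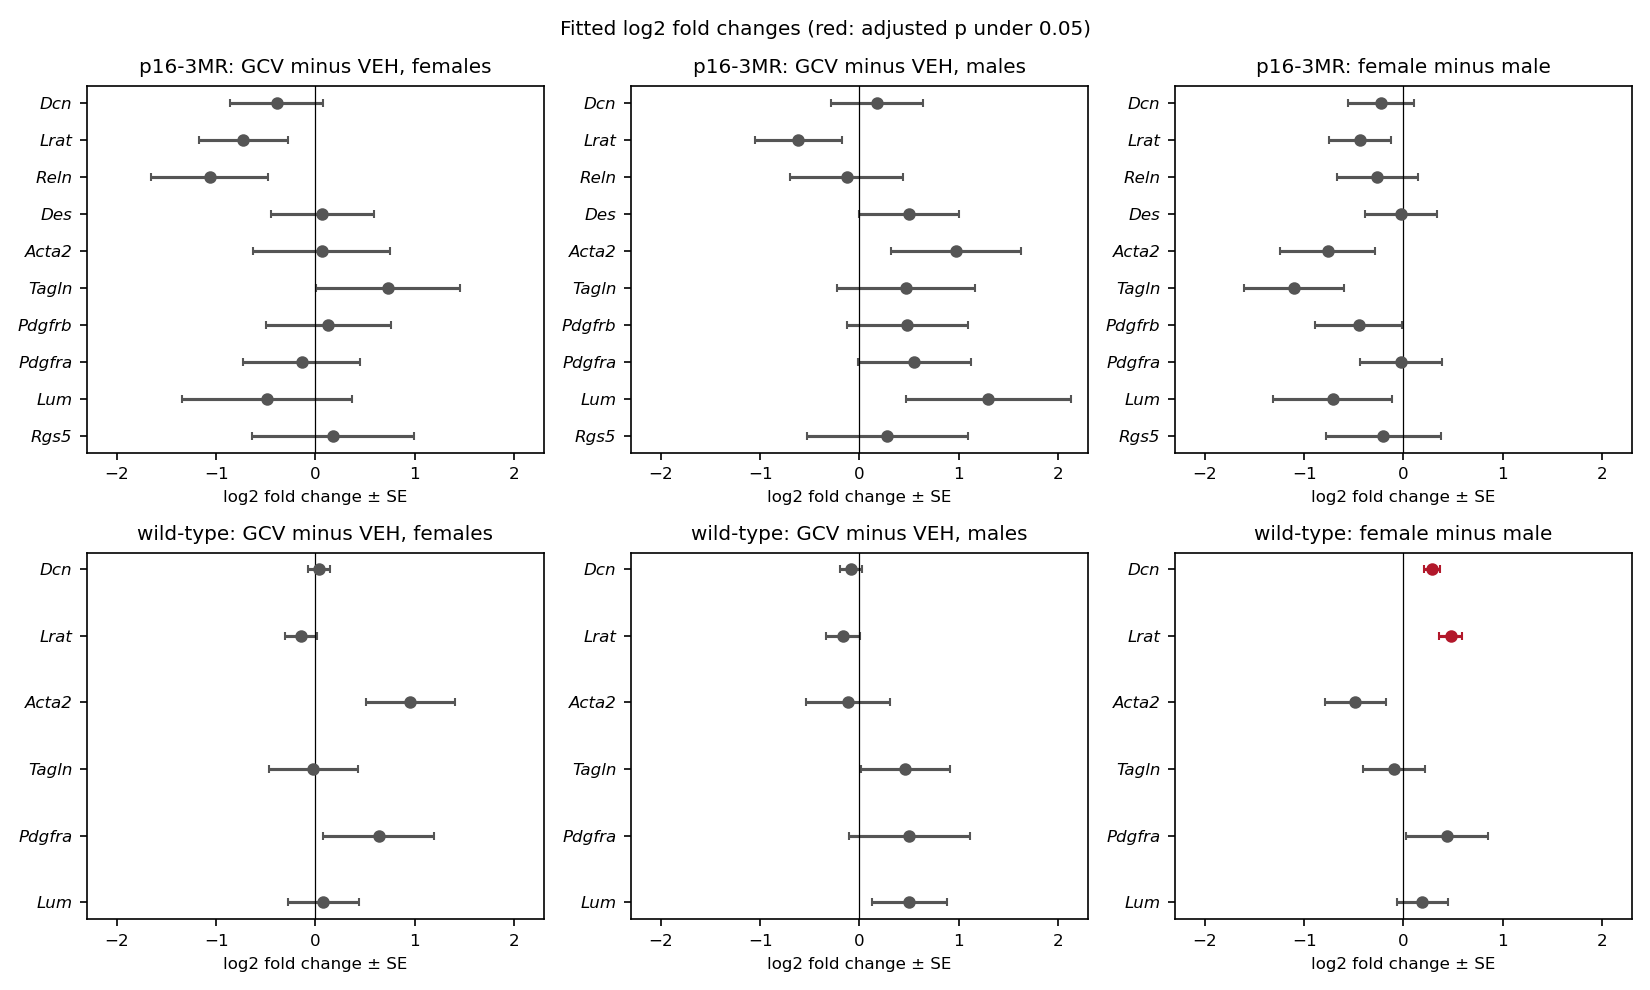
Log2 fold change with its SE (bar) of each gene for the GCV response in each sex and for female minus male, in the p16-3MR livers (upper row) and the wild-type livers (lower row). Only Dcn (0.29) and Lrat (0.48) in the wild-type comparison of the sexes passed an adjusted p of 0.05, and the SEs are wider in the p16-3MR livers.

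Of the 6 members measured in both tables, 5 had a higher coefficient of variation over the 12 p16-3MR livers than over the 12 wild-type livers. It was 36.8% against 12.6% for Dcn, 43.1% against 19.97% for Lrat and 117% against 28.4% for Lum. Acta2 (69.9% against 44.2%) and Tagln (84.1% against 26.7%) had the same order, and Pdgfra (52.6% against 61.0%) the opposite one. Without male GCV liver 32 the p16-3MR values were 47.5% for Lum and 34.5% for Pdgfra, and those of the same 5 genes were still above the wild-type values. In the wild-type livers the pairs cover 6 members, not the 10 of the p16-3MR livers. There r was positive for 8 of 15 pairs, with a median of 0.01, and the highest value was 0.58 for Dcn and Lrat. Acta2, Tagln, Pdgfra and Lum had only 2 to 34 counts in any wild-type liver, and the part of low counts in these r was not tested. The 5 genes closest to the members' mean there were Srcap, Tmem80, Arpin, Rpa1 and Cep68 (r from 0.82 to 0.87, among 6774 genes), none of them on a list used here.

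By group means, Lrat in the wild-type livers ran from 31.9 ± 3.14 CPM (SD, n = 3) in VEH females through 28.8 ± 2.78 in GCV females and 23.1 ± 2.33 in VEH males to 20.7 ± 2.91 in GCV males. The step between GCV females and VEH males was the only one without overlap. Dcn ran from 228 ± 7.11 in GCV females through 222 ± 14.7 in VEH females and 190.0 ± 17.1 in VEH males to 179 ± 22.6 in GCV males, and its only step without overlap lay between VEH females and VEH males.

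The fitted sex differences of Dcn and Lrat had opposite signs in the 2 tables, -0.23 (SE 0.33) and -0.44 (SE 0.31) in the p16-3MR livers against 0.29 and 0.48 in the wild-type livers. That of Dcn in the p16-3MR livers was 0.019 without male GCV liver 32, so that its opposite sign rested on this liver. The difference between the tables was not tested.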

How the data were processed

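Liver libraries of 24 mice had been made by 3′ sequencing (Smart-3SEQ). For each genotype the authors deposited 1 table of estimated counts, already whole numbers, made with Salmon and tximport after leaving out genes with fewer than 3 reads. The submitters' processing notes name FastQC 0.11.9, Trim Galore 0.6.10 and Salmon 1.10.3, with mm10. The authors tested with DESeq2. Their estimated counts can split reads between near-identical genes, and 3′ reads depend on the annotated transcript end.

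Symbols and positions came from GENCODE M21 (GRCm38): 21652 of 21755 p16-3MR identifiers and 10496 of 12643 wild-type labels matched 1 symbol. Groups came from the sample labels. Each table was fitted on its own with edgeR 4.0.16 (R 4.3.3), using TMM scaling, all deposited genes, means for 4 groups over 12 livers and the quasi-likelihood test, with Benjamini-Hochberg adjustment over all genes and a threshold of 0.05. The fits were tested on simulated data: fitted fold changes lay close to those set, but most changes set in the p16-3MR table were not called, and in both tables false calls took a larger share than the threshold allows. DESeq2 1.42.0 was an alternative, with its size factors, a filter on low counts, removal of mitochondrially encoded genes, the livers of 1 sex alone, replicate numbers as a block and each liver left out in turn. Log2 CPM used a prior count of 2, and the floor was 3 counts.

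All members that could be matched were reported in every comparison, 10 in p16-3MR livers and 6 in wild-type livers. From each list, genes past the threshold were named, or else up to 3 with the largest fitted change among genes with a mean of at least 10 counts. The 5 genes most like the members' mean were named per table. Some genes that these rules pick are not reported here. The members and lists were chosen with earlier results of these data known. No sequence was needed for the comparisons.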

Additional observations from a re-analysis of the deposited data

How the results depend on the processing

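No member was called in any comparison other than wild-type sex under any setting. Totals over all genes moved with the tool: with DESeq2, 90 genes were called for GCV in p16-3MR females (0 with edgeR), 5 in p16-3MR males (0), 3 for the difference of these responses (0), 196 between the sexes of p16-3MR livers (66), 17 for GCV in wild-type females (1) and 1 in wild-type males (0). With the livers of 1 sex alone 3 genes were called in p16-3MR females and 44 in wild-type females. With the filter on low counts, 0 were called in wild-type females and 0 for the difference of the wild-type responses (1 without the filter).

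The wild-type replicate numbers are shared between GCV and VEH, but same-numbered livers did not deviate together in every pair (correlations -0.04, -0.06 and 0.002 in females, 0.20, 0.28 and -0.07 in males). With the replicate number as a block, 106 genes were called in wild-type females, 68 in wild-type males and 79 for the difference of the responses, and no member. The p16-3MR livers share no numbers.

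Leaving out 1 liver gave 0 to 1 called genes in p16-3MR females and in p16-3MR males, 0 to 12 in wild-type females, 0 to 46 in wild-type males and 0 to 17 for the difference of the wild-type responses.

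Of 345 fold changes of members and named genes under other settings, 326 kept their direction and side of the threshold, 14 in the fits of 1 treatment alone lost their call, that of Pdgfa was gained with DESeq2 (4.04, adjusted p = 0.00213) and 4 turned. Acta2 in p16-3MR females turned to -0.0057 without mitochondrially encoded genes. In wild-type sex, Tagln was 0.15 in VEH livers alone, and Acta2 0.050 and Lum -0.020 in GCV livers alone. The fits of 1 treatment, those for list genes and the coefficients of variation without liver 32 were added after seeing the data. The cause of these shifts was not tested.

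The direction also turned for these log2 fold changes when 1 liver was left out. For GCV in p16-3MR females they were Des (-0.21 to 0.16), Acta2 (-0.63 to 0.57), Tagln (-0.22 to 1.04), Pdgfrb (-0.39 to 0.44), Pdgfra (-0.54 to 0.059) and Rgs5 (-0.62 to 0.78). In p16-3MR males they were Dcn (-0.45 to 0.56), Reln (-0.99 to 0.32), Des (-0.073 to 0.81), Tagln (-0.56 to 1.14), Pdgfrb (-0.37 to 0.94), Pdgfra (-0.51 to 0.96), Lum (-0.76 to 1.94), Rgs5 (-0.58 to 1.35), Lox (-0.43 to 5.03) and Col1a2 (-0.15 to 3.15). For sex in p16-3MR livers they were Dcn (-0.38 to 0.019), Reln (-0.49 to 0.11), Des (-0.20 to 0.22), Pdgfra (-0.23 to 0.44), Lum (-0.97 to 0.24) and Rgs5 (-0.57 to 0.26). In wild-type livers they were Tagln (-0.24 to 0.24), Pdgfra (-0.085 to 0.90) and Lum (-0.41 to 0.32) for GCV in females, Dcn (-0.17 to 0.012), Acta2 (-0.43 to 0.19) and Pdgfra (-0.38 to 0.91) for GCV in males, and Tagln (-0.19 to 0.033) and Lum (-0.053 to 0.31) for sex. Des, Acta2, Tagln, Lum and both PDGF receptors had the lowest median counts per p16-3MR liver, 26 to 46, and Dcn, with 1187, turned too.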
